A study of Mus musculus with 12 samples.

Results

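The 10 genes described here carry the hepatocyte growth factor (HGF), fibroblast growth factor (FGF) and insulin-like growth factor (IGF) signals of mouse satellite cells, the stem cells of skeletal muscle. They were taken by symbol from the list of growth factor receptors, ligands, Sprouty brakes and syndecans Met, Hgf, Fgfr1, Fgfr4, Fgf2, Igf1r, Spry1, Spry2, Sdc3 and Sdc4, and all 10 were found among the 25093 genes of the deposited count table. RNA was sequenced from satellite cells that had been sorted by flow cytometry from mice 3 to 4 months old. Control mice were Pax7-CreERT2/+;Gli3+/+;R26R-YFP and the conditional knockouts (Gli3-cKO) were Pax7-CreERT2/+;Gli3fl/fl;R26R-YFP. Both genotypes carried the Cre driven from Pax7, a gene of satellite cells, and the YFP reporter, and both were given tamoxifen, so they differed by the floxed Gli3 alleles. Gli3 encodes a transcription factor of the Hedgehog pathway. Quiescent satellite cells (QSCs) were α7-integrin+ CD34+ cells of uninjured hindlimb muscle, in 3 control and 3 Gli3-cKO libraries that each pooled several mice. Activated satellite cells (ASCs) were α7-integrin+ VCAM1+ cells from tibialis anterior and gastrocnemius muscle injured 3 days earlier with cardiotoxin. They were sequenced in 6 libraries of 1 mouse each. The labels of the series name 3 ASC samples of each genotype, but title and other labels disagree for 2 of them and the ASC columns of the table carry only animal numbers, so the ASCs were treated as 1 group of 6 and their genotypes were not compared.

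Each receptor of this set is a tyrosine kinase of the cell surface that passes its signal through adaptor proteins to the RAS-ERK and PI3K-AKT pathways. MET binds HGF, which is stored in the matrix around muscle fibers and is known for drawing satellite cells out of quiescence. FGFR1 and FGFR4 bind FGFs together with heparan sulfate, the sugar chain that syndecans carry, while IGF1R binds IGF1 and IGF2 and promotes growth of muscle cells. Sprouty proteins are induced by receptor signaling and dampen the ERK branch, and Spry1 is known for its role in the return of satellite cells to quiescence.

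The 12 libraries held 36886130 to 65750131 estimated counts. Levels are given in CPM, the usual scaling of counts by the size of the library, here with the TMM factors of edgeR. ASC library 6 stood apart. Its log2(CPM + 1) values correlated with those of the other 5 ASC libraries at r between 0.95 and 0.967, against 0.982 to 0.991 among those 5, and its 6 macrophage markers summed to 4770 CPM, against 226 to 617 CPM in ASC libraries 1 to 5 and 10.1 to 26.2 CPM in QSCs. No macrophage marker was at 0 in an ASC library. All 6 macrophage markers and all 5 Schwann cell markers were at their highest in library 6. So were 4 of 5 endothelial, 4 of 5 mural, 4 of 6 fibro-adipogenic, 3 of 5 myofiber and 2 of 4 committed myogenic markers, but no satellite cell marker. The satellite cell markers, Pax7 among them, were present in every library, with sums over 7 genes of 2640 to 3500 CPM in QSCs and 1570 to 2600 CPM in ASCs. These sums join genes that moved in opposite directions, 2 higher and 5 lower in ASCs by the test described below. Pax7 was at 800 to 1180 CPM in QSCs and at 50.9 to 117 CPM in ASCs. Of the 10 genes described here, Hgf, Fgf2, Sdc3 and Spry1 were at their ASC maximum and Met, Spry2 and Sdc4 at their ASC minimum in library 6, and the results are given with and without it. In these bulk libraries fewer cells of a type and less RNA per cell cannot be told apart.

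The start regions of the paired Sprouty genes, and one short site at Met, are shown for their sequence context. RefSeq (GRCm38.p6) gave a window of 300 bases, beginning 250 bases before the start, for 9 of the 10 genes, all but Fgfr1. Spry1 and Spry2 are printed because these paralogs had different patterns between quiescent and activated cells. Capitals mark a GC box (GGGCGG or its reverse complement CCGCCC). The Spry1 stretch is the 250 bases upstream of the start, chr3:37639697-37639946 on the plus strand, and lies within an annotated exon of Gm42922 on the opposite strand. The Spry2 stretch is the 250 bases upstream of its start, chr14:105896820-105897069 on the minus strand, and holds no GC box, so it has no capitals.
Spry1: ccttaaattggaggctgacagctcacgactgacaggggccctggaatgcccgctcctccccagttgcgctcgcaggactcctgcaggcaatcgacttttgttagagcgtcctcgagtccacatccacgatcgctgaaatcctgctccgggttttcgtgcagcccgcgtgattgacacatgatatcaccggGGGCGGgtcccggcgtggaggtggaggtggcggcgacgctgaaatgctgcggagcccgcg
Spry2: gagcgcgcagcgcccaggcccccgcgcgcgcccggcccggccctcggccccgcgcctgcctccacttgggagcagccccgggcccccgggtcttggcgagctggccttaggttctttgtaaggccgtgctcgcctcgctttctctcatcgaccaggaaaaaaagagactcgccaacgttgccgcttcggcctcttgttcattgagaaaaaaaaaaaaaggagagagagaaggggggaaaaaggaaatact
Both stretches had 62.4% G and C and 23 CpG dinucleotides. A GC box stood in the 300-base windows of 7 of the 9 genes, Hgf and Spry2 being the exceptions, and in 35.7% of all 32851 windows. An AP-1 motif (TGACTCA or its reverse complement TGAGTCA) was found only at Met among the 9, and in 5.2% of all windows. It is shown in capitals within chr6:17463892-17463920 on the plus strand, a stretch that is part of an annotated exon of Met.
Met: tgttgcccggcTGAGTCAcgggccgggca
No match was found in the 9 windows to the GLI motif TGGGTGGTC, present in 0.253% of all windows on either strand, to the ETS motif CCGGAAG (8.86%) or to the E-box CAGCTG (16.3%). None of these motifs contains another, both strands were searched, and a match is only a run of letters.

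Activation after injury was addressed by comparing the 6 ASC libraries with the 6 QSC libraries, the mean of both QSC genotypes taken as the base. Of the 10 genes, Met, Hgf and Sdc3 were higher in ASCs, Fgfr1, Fgfr4, Fgf2, Igf1r, Spry1 and Sdc4 were lower, and Spry2 did not pass the test. A gene was called where the Benjamini-Hochberg adjusted p of edgeR's quasi-likelihood test was below 0.05 and the fold change was at least 1.2. By this rule 9 of the 10 were called, where 58.9% of all 25093 genes were called, 31.1% higher and 27.8% lower. The QSC and ASC libraries did not overlap for 8 of the 10 genes, against 39.6% of all genes (20.6% higher and 19.1% lower in ASCs). The exceptions were Hgf and Spry2. The same 3 genes were called higher and the same 6 lower without ASC library 6, where 60.7% of all genes were called, 30.1% higher and 30.6% lower. The QSCs and ASCs differed in sort gate, injury, muscles taken and mice per library as well as in state, and these cannot be told apart.

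**Figure D1:**
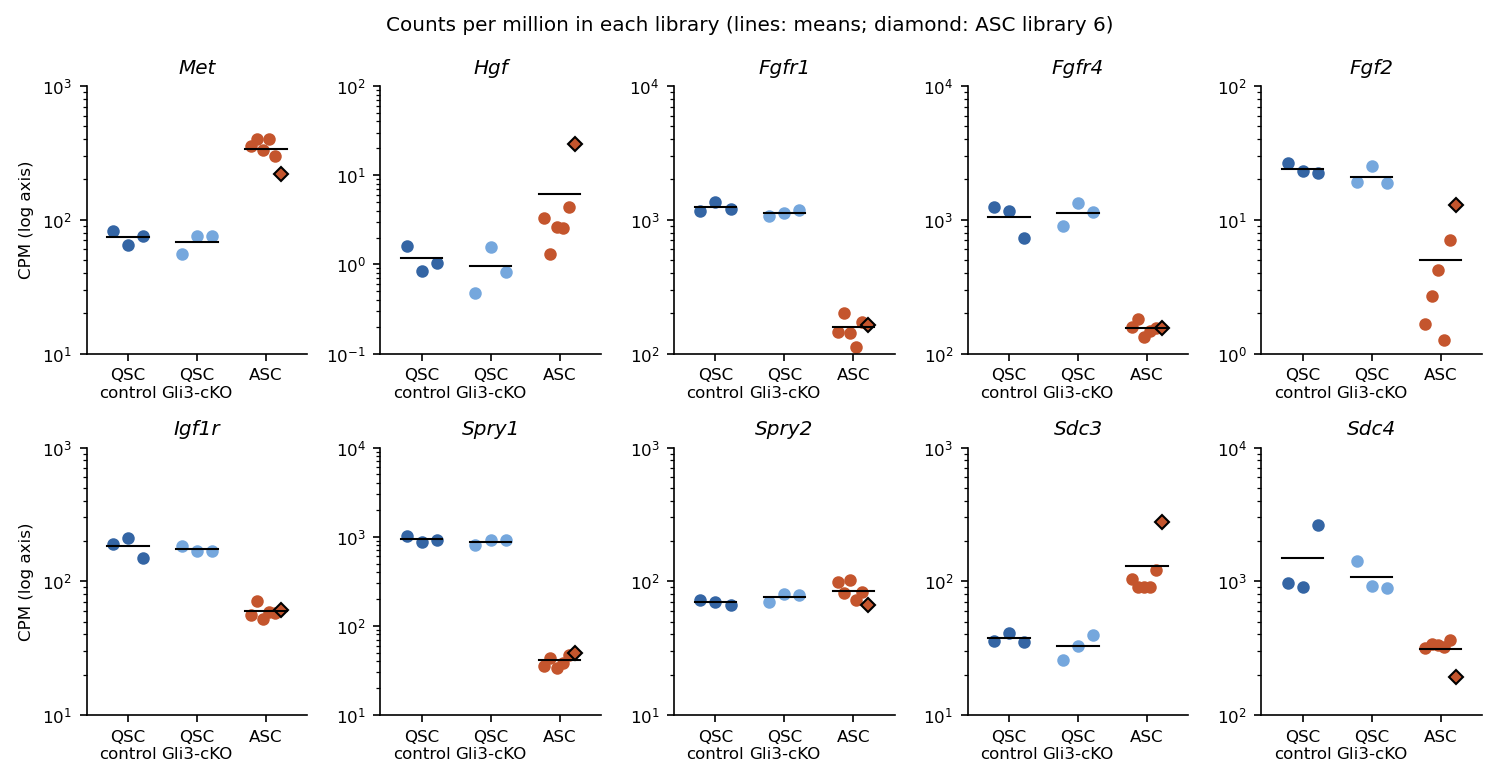
CPM (log axis) of each of the 10 genes in 3 control QSC, 3 Gli3-cKO QSC and 6 ASC libraries, with 1 point per library, lines at group means and a diamond for ASC library 6. Met ranged from 220 to 403 CPM in ASCs and from 55.6 to 81.8 CPM in QSCs, while Spry1 ranged from 33.3 to 49.9 CPM in ASCs and from 807 to 1020 CPM in QSCs.

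Among the ligands, Hgf (ENSMUSG00000028864.7, chr5:16553495-16620152 on the plus strand of GRCm38) was the most thinly counted of the 10, with 25 to 102 counts per QSC library. Its levels were 1.62, 0.852 and 1.03 CPM in control QSCs, 0.479, 1.55 and 0.829 CPM in Gli3-cKO QSCs, and between 1.3 and 22.4 CPM, with a median of 2.98 CPM, in ASCs. ASC library 2, at 1.3 CPM, lay within the QSC range, and ASC library 6, at 22.4 CPM, lay far above the next highest at 4.41 CPM. Its log2 fold change was 2.53 ± 0.668 (SE, 95% interval 1.08 to 3.98, edgeR adjusted p = 0.00575). Without ASC library 6 it was 1.4, a 2.64-fold difference in place of 5.78-fold (adjusted p = 0.00451), and against control QSCs alone it was 2.37 and did not pass (adjusted p = 0.0516). Macrophages and fibro-adipogenic cells can make Hgf. The sort of both states also left out cells positive for CD31, CD45, SCA1 or CD11b. The macrophage markers summed to 4770 CPM in ASC library 6, 226 to 617 CPM in ASC libraries 1 to 5 and 10.1 to 26.2 CPM in QSCs. The 6 fibro-adipogenic markers were mixed, with 3 called higher and 2 lower in ASCs. Pdgfra was at 54.6 CPM in ASC library 6, at 3.37 to 11.4 CPM in the other ASC libraries and at 1.59 to 3.82 CPM in QSCs, and Lum was at 58.9, 3.29 to 14.5 and 1.85 to 4.69 CPM. Their sum was 633 CPM in ASC library 6, 45.3 to 171 CPM in ASC libraries 1 to 5 and 690 to 1160 CPM in QSCs, where Dpt (375 to 538 CPM) and Col15a1 (219 to 538 CPM) made up most of it. The part of those cells in the level of Hgf was not tested.

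Fgf2 (ENSMUSG00000037225.13, chr3:37348346-37410108, plus strand), the basic FGF that promotes proliferation of satellite cells in culture, moved the other way. It was at 26.7, 23.1 and 22.3 CPM in control QSCs and at 19.1, 25.3 and 18.7 CPM in Gli3-cKO QSCs. In ASCs it ranged from 1.27 to 13 CPM with a median of 3.43 CPM. Every ASC library lay below every QSC library, but the ASC libraries had a wider ratio of highest to lowest than those of any other of the 10 genes except Hgf, with the highest value again in library 6. In the fit its log2 fold change was -2.18 ± 0.494 (SE, edgeR adjusted p = 0.00216), a 4.52-fold lower level, and 6.84-fold lower without ASC library 6 (adjusted p = 2.86e-05). Exons of Fgf2 share 640 bases, 9.44% of their length, with Nudt6 on the opposite strand. Nudt6 was at 4.03 to 7.6 CPM over all libraries, and since it is not stated whether counting used strand, reads in the shared bases cannot be told apart.

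The receptors did not move as one. Met (ENSMUSG00000009376.15, chr6:17463800-17573980, plus strand), the only receptor of HGF, rose. It stood at 81.8, 64.6 and 75.6 CPM in control QSCs and at 55.6, 75 and 75.1 CPM in Gli3-cKO QSCs, and ranged in ASCs from 220 to 403 CPM with a median of 347 CPM. The lowest ASC library, number 6, was 220 CPM and the highest QSC library 81.8 CPM, so the groups were well separated. The log2 fold change was 2.24 ± 0.156 (SE, 95% interval 1.90 to 2.58, edgeR adjusted p = 1.21e-07), a 4.73-fold rise, and 2.31 without ASC library 6.

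Fgfr1 and Fgfr4, the FGF receptors most used by satellite cells, both fell. Fgfr1 (ENSMUSG00000031565.18, chr8:25513654-25575718, plus strand) was at 1170, 1360 and 1200 CPM in control QSCs, at 1070, 1120 and 1180 CPM in Gli3-cKO QSCs, and at 111 to 202 CPM with a median of 155 CPM in ASCs. Fgfr4 (ENSMUSG00000005320.9, chr13:55152640-55168759, plus strand) was at 1240, 1170 and 731 CPM in control QSCs, at 895, 1330 and 1150 CPM in Gli3-cKO QSCs, and at 132 to 182 CPM, again with a median of 155 CPM, in ASCs. Neither gene overlapped between QSCs and ASCs, and ASC library 6 lay inside the range of the other ASC libraries for both. The log2 fold change of Fgfr1 was -2.92 ± 0.141 (SE, edgeR adjusted p = 7.43e-09) and that of Fgfr4 was -2.81 ± 0.155 (SE, adjusted p = 2.04e-08), 7.55-fold and 7.01-fold lower levels. The log2 ratio of Fgfr4 to Fgfr1 CPM within a library ran from -0.714 to 0.255 in QSCs and from -0.16 to 0.42 in ASCs, ranges that overlapped.

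Igf1r (ENSMUSG00000005533.10, chr7:67952827-68233668, plus strand), the receptor of IGF1 and IGF2, had the smallest estimated fall of the 6 lower genes. It was at 191, 211 and 148 CPM in control QSCs and at 184, 167 and 168 CPM in Gli3-cKO QSCs, and in ASCs at 52.5 to 71.1 CPM with a median of 58.8 CPM. The lowest QSC library was above the highest ASC library. On the log2 scale the fold change was -1.58 ± 0.105 (SE, edgeR adjusted p = 8.33e-08), a 2.98-fold lower level, and its interval of -1.81 to -1.35 did not meet those of Fgfr1 (-3.22 to -2.61) and Fgfr4 (-3.15 to -2.47). That interval did overlap those of Sdc4 (-2.615 to -1.431) and Fgf2 (-3.249 to -1.104).

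The Sprouty paralogs parted. Spry1 (ENSMUSG00000037211.12, chr3:37639947-37644598, plus strand) had the largest change of the 10 genes. It was at 1020, 871 and 917 CPM in control QSCs and at 807, 912 and 924 CPM in Gli3-cKO QSCs, and ASCs held 33.3 to 49.9 CPM with a median of 40.8 CPM. This gave a log2 fold change of -4.46 ± 0.133 (SE, 95% interval -4.75 to -4.17, edgeR adjusted p = 7.98e-10), a 22-fold lower level. Exons of Spry1 share 710 bases, 24.4% of their length, with Gm42922 on the opposite strand, which was at 0.318 to 2.35 CPM throughout and hence far below Spry1.

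Spry2 (ENSMUSG00000022114.5, chr14:105891947-105896819, minus strand) was not called. It was at 72.8, 70 and 66.3 CPM in control QSCs, at 69.5, 80.7 and 79.4 CPM in Gli3-cKO QSCs, and at 66.4 to 102 CPM with a median of 82.6 CPM in ASCs, so the groups overlapped. A log2 fold change of 0.20 ± 0.111 (SE, 95% interval -0.04 to 0.45, edgeR adjusted p = 0.132) was found, which leaves room for a rise of a modest size. It passed with limma voom (0.27; adjusted p = 0.0242) and without ASC library 4 (0.28; edgeR adjusted p = 0.0497). The log2 ratio of Spry1 to Spry2 CPM was 3.50 to 3.81 in the 6 QSC libraries and -1.61 to -0.41 in the 6 ASC libraries, so Spry1 had more reads than Spry2 in every QSC library and fewer in every ASC library.

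The syndecans, which carry heparan sulfate and act as co-receptors of HGF and FGFs, also moved in opposite directions. Sdc3 (ENSMUSG00000025743.14, chr4:130792537-130826319, plus strand) was at 36, 40.9 and 35.2 CPM in control QSCs, at 25.7, 32.9 and 39.5 CPM in Gli3-cKO QSCs, and at 90 to 276 CPM with a median of 97.4 CPM in ASCs. All ASC libraries were above all QSC libraries, and the highest ASC value, in library 6, stood well clear of the next at 122 CPM. Its log2 fold change was 1.88 ± 0.281 (SE, edgeR adjusted p = 8.59e-05), and 1.48 without ASC library 6 (adjusted p = 2.75e-07). Sdc3 is also a syndecan of Schwann cells, whose 5 markers summed to 1160 CPM in ASC library 6, 53.9 to 147 CPM in ASC libraries 1 to 5 and 170 to 290 CPM in QSCs. In ASC libraries 1 to 5 Sdc3 was at 90 to 122 CPM. The part of Schwann cells in the level of Sdc3 was not tested.

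Sdc4 (ENSMUSG00000017009.3, chr2:164424247-164443887, minus strand) was at 967, 905 and 2620 CPM in control QSCs and at 1410, 925 and 893 CPM in Gli3-cKO QSCs. In ASCs it ranged from 191 to 364 CPM with a median of 329 CPM, the lowest value being that of library 6. Control QSC library 3 was far above the other QSC libraries, yet the lowest QSC value remained above the highest ASC value. The log2 fold change was -2.02 ± 0.273 (SE, edgeR adjusted p = 3.7e-05), a 4.06-fold lower level, and -1.95 without ASC library 6.

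**Figure D2:**
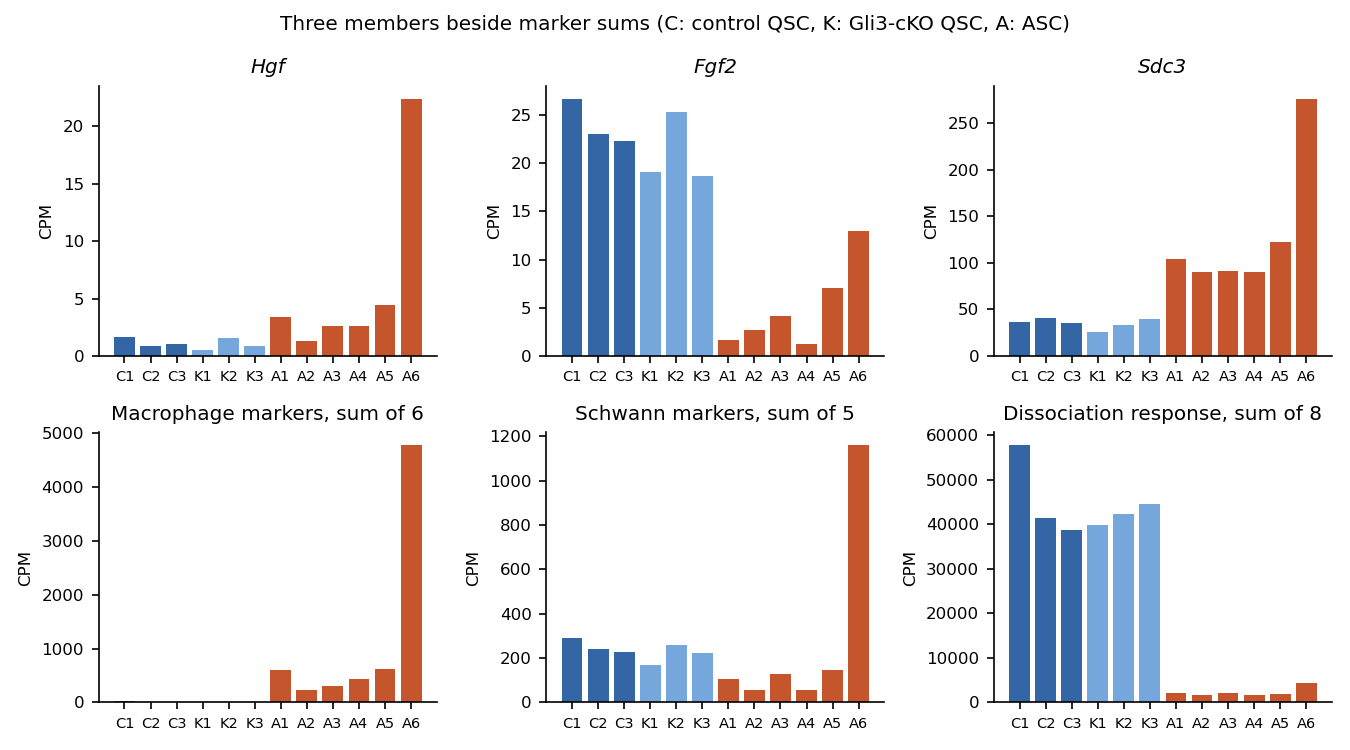
CPM in each library of Hgf, Fgf2 and Sdc3 (upper row) and of the summed macrophage, Schwann cell and dissociation response markers (lower row), with C for control QSC, K for Gli3-cKO QSC and A for ASC libraries. In ASC library 6 Hgf (22.4 CPM), Sdc3 (276 CPM) and the macrophage sum (4770 CPM) stood above every other library, while the dissociation response sum was 38700 to 57700 CPM in QSCs and 1570 to 4430 CPM in ASCs.

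Genes that are induced while muscle is dissociated and cells are sorted differed between the states as well. A list of 8 such genes, Fos, Jun and Egr1 among them, summed to 38700 to 57700 CPM in QSCs and to 1570 to 4430 CPM in ASCs, and all 8 were called lower in ASCs. The 6 genes described as lower in ASCs were lower in the same libraries, and the part of this response in their levels was not tested. The 4 cycling markers summed to 3.41 to 23.2 CPM in QSCs and 1030 to 1530 CPM in ASCs.

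**Figure D3:**
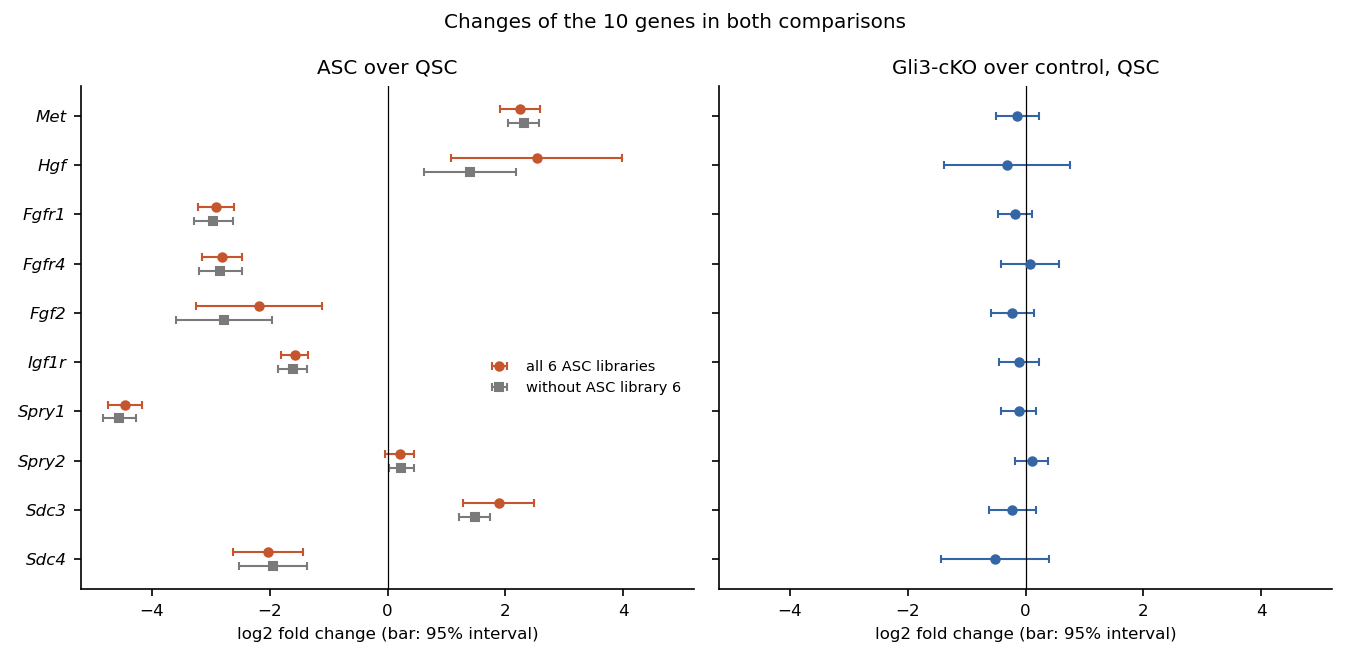
Log2 fold changes with 95% intervals of the 10 genes for ASC over QSC (left, all 6 ASC libraries as circles and without library 6 as squares) and for Gli3-cKO over control in QSCs (right). On the left Met, Hgf and Sdc3 lie above 0 and Spry2 near 0, with Spry1 lowest at -4.46, and on the right every interval includes 0.

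Levels can be set between genes only per length, and for this CPM was divided by the kilobases of annotated exon. In QSCs the order on this scale was Sdc4 at 505 ± 267, Spry1 at 313 ± 24.2, Fgfr4 at 306 ± 64, Fgfr1 at 120 ± 9.98, Spry2 at 35 ± 2.76, Igf1r at 10.6 ± 1.29, Met at 9.29 ± 1.23, Sdc3 at 5.85 ± 0.909, Fgf2 at 3.32 ± 0.477 and Hgf at 0.148 ± 0.0621 CPM per kilobase (SD, n = 6). The libraries of Sdc4 and Spry1, of Spry1 and Fgfr4, and of Igf1r and Met overlapped, and the other neighbors in this order did not. In ASCs the order was Sdc4 at 123 ± 24.1, Met at 43.9 ± 9.01, Fgfr4 at 43.7 ± 4.57, Spry2 at 40.3 ± 6.72, Sdc3 at 21.5 ± 12.2, Fgfr1 at 15.8 ± 3.12, Spry1 at 14.2 ± 2.32, Igf1r at 3.55 ± 0.382, Hgf at 0.85 ± 1.12 and Fgf2 at 0.732 ± 0.655 CPM per kilobase (SD, n = 6). Here the neighbors from Met to Spry1, and Hgf and Fgf2, overlapped. Without ASC library 6 the order was the same except that Fgf2, at 0.496 ± 0.344, stood above Hgf, at 0.397 ± 0.159 CPM per kilobase (SD). Sdc4 thus led in both states, Met moved from the seventh place to the one below Sdc4, and Spry1 went from below Sdc4 to the seventh.

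Met and Fgfr1 were also compared within each library. Fgfr1 per kilobase exceeded Met per kilobase 13.1-fold on average in QSCs, with a range of 11.2 to 16.3 over the 6 libraries. In ASCs Met exceeded Fgfr1 2.9-fold, with a range of 1.73 to 4.67 over the 6 libraries, the lowest in library 6. With the longest transcript as the length in place of all exons the ratio in ASCs was 1.67, and Met exceeded Fgfr1 in 5 of the 6 libraries, the ratio being 0.996 in library 6.

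**Figure D4:**
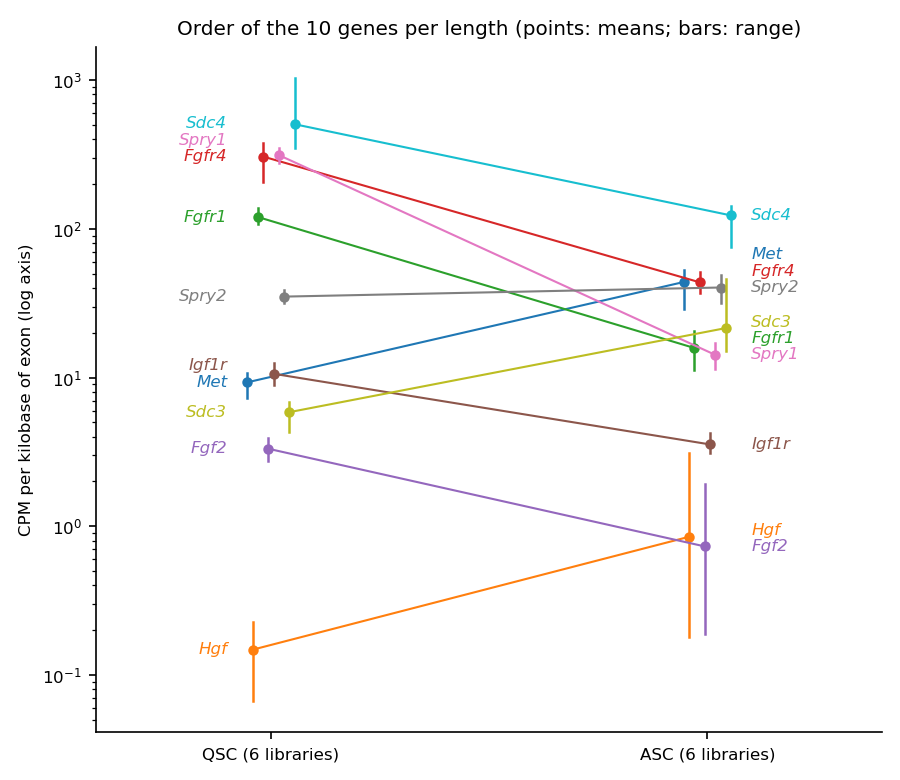
Levels of the 10 genes in CPM per kilobase of exon (log axis) in QSCs and ASCs, with points at the mean of 6 libraries, bars over their range and a line joining the states of each gene. Met crosses Fgfr1, rising from 9.29 to 43.9 while Fgfr1 falls from 120 to 15.8, and Sdc4 stays at the top of both orders.

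The other genes of these pathways, a list of 93 grouped by role of which 90 were measured, give the setting of the 10. In ASCs 27 were called higher, 39 lower and 24 were not called, with a median log2 fold change of -0.05. Over all genes 31.1% were higher and 27.8% lower, with a median of 0.01, and the counts by role that follow are to be read beside these shares. Of the 90, the count called higher was near its share over all genes. Without ASC library 6 the counts were 27 higher and 43 lower and the median was -0.36.

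The brakes went mainly the way of Spry1, with 1 of 9 measured genes higher, 7 lower and a median of -0.83. Lrig1, a membrane protein that restrains receptor tyrosine kinases, fell from 442 ± 67.5 to 53.8 ± 15.3 CPM (mean ± SD, n = 6 and 6; log2 fold change -3.03; edgeR adjusted p = 5.01e-08). Errfi1, an inhibitor of the EGF receptor, fell by 1.94 on the log2 scale (adjusted p = 9.12e-05) and Il17rd, an inhibitor of FGF signaling also called Sef, fell by 1.07 (adjusted p = 4.89e-05). Errfi1 was at 3110 CPM in control QSC library 3, the library with the highest Sdc4, and at 1220 to 1800 CPM in the other QSC libraries.

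In the HGF axis 6 of 13 genes were higher and 3 lower, with a median of 0.93 (without ASC library 6, 4 lower and a median of 0.51). Spint1, an inhibitor of the proteases that activate HGF, was at 0 to 0.0999 CPM in QSCs and at 1.54 to 3.63 CPM in ASCs, and was called higher. Plaur, the receptor of urokinase, rose from 1.85 to 17.2 CPM in QSCs to 47.2 to 74.9 CPM in ASCs (log2 fold change 3.71, edgeR adjusted p = 1.58e-05; 4.45 without control QSC library 3, which held the 17.2 CPM). Gab1, the adaptor that docks on MET, fell from 180 ± 21.1 to 34.3 ± 13.8 CPM (SD, n = 6 and 6; log2 fold change -2.39; adjusted p = 1.47e-06) while Met rose.

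Of 8 measured genes of the FGF family 3 were called higher and 1 lower, with a median of 0.71, and most were scarce. Fgf13, the 1 called lower and a family member that acts inside the cell, fell from 21.2 ± 4.34 to 7.38 ± 3.1 CPM (SD, n = 6 and 6; log2 fold change -1.50; edgeR adjusted p = 0.000627). Fgf7, a ligand of FGFR2, was at 0.35 to 1.15 CPM in QSCs and 0.796 to 3.1 CPM in ASCs (log2 fold change 1.35; adjusted p = 0.00936), and did not pass against control QSCs alone (adjusted p = 0.0948). Among 7 measured receptors and adaptors 1 was higher and 2 lower, or 3 lower without ASC library 6. The adaptors Frs3 and Frs2, which link FGF receptors to RAS, fell by 2.06 and 0.91 on the log2 scale (adjusted p = 1.28e-05 and 7.15e-07), alongside Fgfr1 and Fgfr4. Fgfrl1, a receptor without a kinase domain, rose by 0.49 (adjusted p = 0.0213), a call that was lost against control QSCs alone (adjusted p = 0.11) and without control QSC library 3, Gli3-cKO QSC library 1 or ASC library 1 (adjusted p = 0.0528, 0.0552 and 0.0526).

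In the IGF axis 3 of 14 genes were higher and 9 lower, with a median of -0.995. Igfbp2 and Igfbp3, which bind IGFs outside the cell, rose, the first from 0.27 ± 0.217 to 26.1 ± 5.29 CPM (SD, n = 6 and 6; log2 fold change 6.76; edgeR adjusted p = 1.31e-08) and the other from 7.98 ± 3.6 to 43.4 ± 25 CPM (2.49; adjusted p = 0.000127). Irs2, the adaptor of the insulin and IGF receptors, fell from 472 ± 146 to 60 ± 14.6 CPM (-2.97; adjusted p = 3.55e-07), in the direction of Igf1r.

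The 18 heparan sulfate core proteins and enzymes were split, with 7 higher and 7 lower and a median of -0.10. Without ASC library 6 the counts were 7 higher and 9 lower and the median -0.23. The sulfatases that trim sulfate groups from heparan sulfate had opposite signs. Sulf2 rose from 3.42 ± 0.65 to 56.6 ± 26.6 CPM (SD, n = 6 and 6; log2 fold change 4.05; edgeR adjusted p = 1.76e-07), and Sulf1 fell from 330 ± 34.7 to 64 ± 15.3 CPM (-2.36; adjusted p = 8.65e-08). Gpc1, a glypican core protein, rose from 84.4 ± 17.3 to 494 ± 75.5 CPM (2.56; adjusted p = 2.21e-08).

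Of the 14 shared relay genes 4 were higher and 5 lower, with a median of 0.00157. Pik3r1, the regulatory subunit of PI3K, fell by 3.30 on the log2 scale (edgeR adjusted p = 1.8e-07), while the kinases Akt1 and Map2k1 rose by 1.19 and 0.66 (adjusted p = 3.12e-06 and 1.09e-05). All 7 genes listed as transcription targets were called, 2 higher and 5 lower. Egr1 fell from 9300 ± 1130 to 202 ± 78 CPM (SD, n = 6 and 6; log2 fold change -5.52; adjusted p = 1.02e-08) and Egr2 from 242 ± 88.7 to 17.1 ± 15.6 CPM (-3.81; adjusted p = 3.52e-05). Etv4, an ETS factor induced by FGF signaling, rose from 2.46 ± 0.325 to 43.1 ± 13.2 CPM (4.13; adjusted p = 2.08e-08). Etv5, another ETS target of FGF signaling, went the other way, from 80.5 ± 19.3 to 29.2 ± 1.87 CPM (-1.43; adjusted p = 1.93e-07). Egr1 also belongs to the dissociation response list, which was higher in QSCs as a whole.

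**Figure D5:**
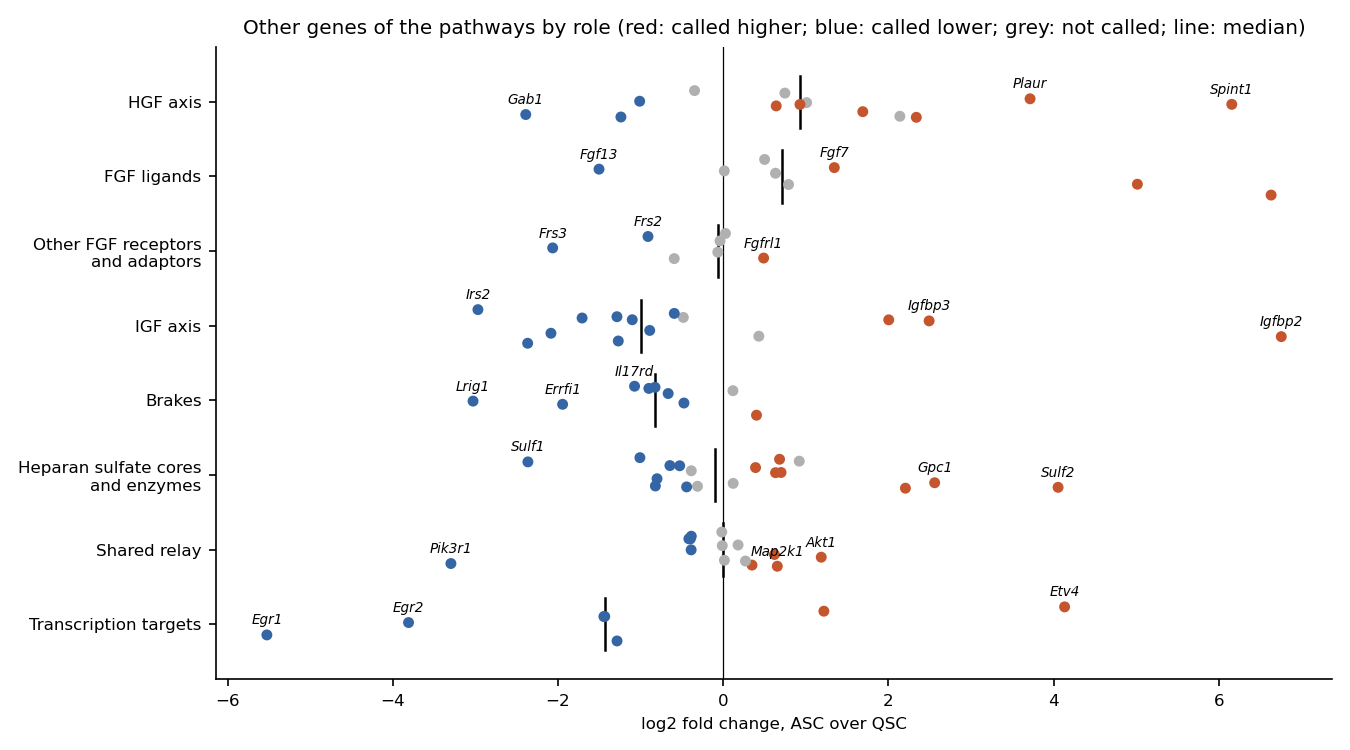
Log2 fold changes, ASC over QSC, of the 90 other measured pathway genes in rows by role, with 1 point per gene, red for called higher, blue for called lower, grey for not called and a line at the median of each role. Brakes and the IGF axis lie mostly to the left (medians -0.83 and -0.995), and Egr1 (-5.52) and Igfbp2 (6.76) mark the outer ends.

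Deletion of Gli3 was addressed in QSCs, by comparing the 3 Gli3-cKO with the 3 control libraries. None of the 10 genes was called and none had groups that did not overlap. Over all 25093 genes 0.351% were called, 0.187% higher and 0.163% lower, and 13% had groups that did not overlap, 6.39% higher and 6.57% lower. By edgeR's quasi-likelihood test 1785 genes had an unadjusted p below 0.05, and none of the 10 was called with DESeq2 or limma voom either. Their adjusted p values ran from 0.677 to 1 over all alternatives. The paper reports a check of Gli3 excision in QSCs by quantitative PCR, and significantly lower Gli3 in Gli3-cKO ASCs by sequencing. Only part of the gene is removed, and reads from that part were not tested here. The count of the whole gene was at 11.3, 9.63 and 9.4 CPM in control and 9.58, 10.7 and 6.27 CPM in Gli3-cKO QSCs. Its log2 fold change was -0.22 (edgeR adjusted p = 0.916) and the groups overlapped, so this count did not separate the QSC genotypes.

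The intervals show which sizes of change remain possible. For Met the log2 fold change, Gli3-cKO over control, was -0.14 (95% interval -0.51 to 0.22), with means of 68.6 ± 11.2 and 74 ± 8.69 CPM (SD, n = 3 each). The receptors Fgfr1, Fgfr4 and Igf1r were at -0.18 (-0.47 to 0.11), 0.07 (-0.42 to 0.57) and -0.11 (-0.46 to 0.23). The brakes Spry1 and Spry2 were at -0.12 (-0.42 to 0.18) and 0.10 (-0.18 to 0.38). A change of 2-fold, 1 on the log2 scale, lay outside all of these intervals.

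Fgf2 was at -0.22 (-0.59 to 0.14) and Sdc3 at -0.23 (-0.62 to 0.17), with intervals that also left out a change of that size. Hgf and Sdc4 had the widest intervals of the 10 genes. Hgf was at -0.31 (-1.38 to 0.75), and Sdc4 was at -0.52 (-1.44 to 0.40), with means of 1070 ± 287 CPM in Gli3-cKO and 1500 ± 971 CPM in control QSCs (SD, n = 3 each). That value rested on control library 3 at 2620 CPM, and without it the log2 fold change was 0.19 (edgeR adjusted p = 0.88). Plaur was high in the same library, at 17.2 CPM against 1.85 to 3.83 CPM in the other QSC libraries. A fall of 2-fold thus lay within the intervals of Hgf and Sdc4.

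No pathway gene was called either, the median of the 90 was -0.09 beside -0.03 over all genes, and 14 of the 90 had groups that did not overlap, beside 13% of all genes. The genes given next had the smallest p of their role. Fgf13 was at 24.8 ± 2.32 CPM in control and 17.6 ± 1.8 CPM in Gli3-cKO QSCs (SD, n = 3 each; log2 fold change -0.52; edgeR adjusted p = 0.4), and Fgfr2, the FGF receptor of epithelia, was at 4.77 ± 1.69 and 1.95 ± 0.843 CPM (-1.32; adjusted p = 0.424). Etv5, an ETS target of FGF signaling, was at 65.2 ± 13.8 and 95.8 ± 6.58 CPM (0.53; adjusted p = 0.454). Lrig1 (-0.37), Hs2st1 (0.38), Irs1 (0.40), Map2k1 (-0.27) and Plaur (-1.60) had adjusted p values of 0.619, 0.622, 0.623, 0.715 and 0.712, and Plaur was at -0.08 without control library 3.

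Genes that followed a member most closely over the 12 libraries were sought among 10158 genes with a mean of at least 10 CPM, by Pearson's r of log2(CPM + 1). Since the 12 points form a QSC and an ASC cluster, r here mostly reads the difference between these clusters, and it is given as a description. Met was followed by Gemin6 (r = 0.996), Gatad1 (0.996) and Myod1 (0.995), the last a regulator of muscle commitment. Fgfr4 was followed by Zranb1 (0.995), Prox1 (0.995) and Clmn (0.994), and Igf1r by Rsbn1l (0.995), Zfp420 (0.994) and Chd2 (0.994). For Spry1 these genes were Ntsr2 (0.998), Dclk3 (0.998) and Otoa (0.998), with log2 fold changes of -9.97, -6.64 and -5.84. Sdc4, with its high value in control QSC library 3, had the lowest likeness, to Scml4 (0.992), Scaf8 (0.986) and Dnajc25 (0.984).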

How the data were processed

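The authors sequenced poly(A) RNA, prepared from sorted cells with a directional kit, on a NextSeq, quantified transcripts with salmon against GRCm38 with GENCODE vM19 and summed them to genes with tximport, keeping genes with at least 5 reads in at least 2 samples. The deposited values are estimated counts (expected counts per gene, not normalized), with 44.3% to 51% of values per library not whole. The labels also name DESeq2. Tables of the authors' own comparisons hold fold changes and p-values and were not used.

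After rounding, 25093 genes entered quasi-likelihood tests in edgeR 4.0.16 (TMM scaling, R 4.3.3), with Benjamini-Hochberg adjustment. The QSC genotype fit used the 6 QSC libraries, and the ASC over QSC fit all 12, with the contrast of ASC against the mean of both QSC groups. CPM values are on the TMM scale of all 12 libraries. The 12 totals of 36886130 to 65750131 counts set the counting precision, and p-values measure the spread between libraries. ASC libraries are numbered in table order. Other runs used voom from limma 3.58.1 with library quality weights, DESeq2 1.42.0, other scalings and filters, single QSC genotypes and leaving out each library. Scripts were tested on simulated data. Lengths came from GENCODE vM21, in which 99.9% of gene identifiers were found and 96.3% had the same version. Promoter windows came from RefSeq. The 10 genes, the pathway and marker lists were chosen with earlier results of these data known. All 10 genes were described, and Etv5 was given beside Etv4 for ASC over QSC outside the rule that follows. Of the pathway list the text names, per role, up to 3 called genes with the largest change and a mean of at least 1 CPM, or, where none was called, the gene with the smallest p, and for Met, Fgfr4, Igf1r, Spry1 and Sdc4 the 3 genes most like each.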

Additional observations from a re-analysis of the deposited data

Results flagged for a closer look

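In the group of 6 ASC libraries, 33 genes were examined for a library far from the others by Dixon's gap test. They were the 10 and the 23 pathway genes named by rule for ASC over QSC. 6 genes had one, and in each it was ASC library 6. Such a gap is expected in about 5% of groups by chance. Hgf was at 22.4 CPM there with the next library at 4.41 CPM, Sdc3 at 276 CPM with the next at 122 CPM, and Sdc4 at 191 CPM, below the next lowest at 319 CPM. Of the pathway genes, Gab1 was at 61 CPM (next 33.4), Pik3r1 at 95.8 CPM (next 56.1) and Egr2 at 48.2 CPM (next 16.1). The 6 macrophage markers summed to 4770 CPM in this library and to 605, 226, 299, 433 and 617 CPM in ASC libraries 1 to 5, and the part of other cells in these 6 values was not tested.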

How the results depend on the processing

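In the ASC over QSC comparison the 10 genes kept direction and side of the threshold in 88 of 90 refits with other tools, scalings, filters or QSC groups and in 119 of 120 leaving out 1 library. Hgf missed the threshold against control QSCs alone (2.37; adjusted p = 0.0516), and Spry2 passed with limma voom (0.267) and without ASC library 4, its range on leaving out 1 library being 0.142 to 0.282. Hgf ranged from 1.4 to 2.8 and Fgf2 from -2.77 to -1.93, with the ends 1.4 and -2.77 without ASC library 6. Egr2 went to -4.49 without that library. DESeq2 gave no adjusted p for Plaur in this comparison. Met over Fgfr1 per length was 0.0448 in QSCs and 1.67 in ASCs with the longest transcript, in place of 0.0778 and 2.9.

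Of the QSC genotype values none was called under any alternative. Fgfr4 turned to -0.00829 with limma voom. Leaving out 1 library gave ranges that cross 0 for Hgf (-0.85 to 0.00314), Fgfr4 (-0.115 to 0.212), Igf1r (-0.23 to 0.0032) and Sdc4 (-0.776 to 0.186, the last without control library 3). The number of genes called, 88, was 384 with DESeq2 and 48 with at least 10 counts in every library, and 58 to 103 leaving out 1 library, the lowest without Gli3-cKO library 3. The cause was not tested for these moves, except that the count filter left 16759 genes to test. Same-numbered QSC libraries did not deviate together (r = -0.276, -0.021 and -0.066), and differently numbered ones had r of -0.24 to 0.329. Over 3 libraries per genotype this check cannot exclude a pairing, and the main fit used none. A fit with a replicate block called 79 genes, none of the 10 among them. Hgf was thinly counted, at 25 to 102 counts per QSC library, and the part of depth in its wide interval was not tested. With 3 libraries per genotype, small changes could not be shown.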
